A study of Capitella teleta with 12 samples.

Results

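*Smad1/5/8* and *SMURF*, an intracellular transducer of BMP signals and a ubiquitin ligase that acts on Smads, were followed by transcript level through 3 early cleavage stages of the annelid *Capitella teleta*. They were taken by their gene model identifiers, '173019' for *Smad1/5/8* and '153266' for *SMURF*, and are 2 of the 32415 gene models in the count table. RNA was sequenced from 12 single whole embryos, of which 4 had 8 cells, 3 had 16 cells and 5 had 32 cells. All were untreated embryos, and the labels give neither a brood nor a batch, so p-values measure the spread between these embryos only. Stages were taken from the labels, with no marker gene to check them against. The method was CEL-Seq, which tags the 3′ end of each polyadenylated transcript with an embryo barcode and a molecular identifier (UMI). The organizer cell 2d, which patterns the dorsal-ventral axis, acts in the 16-cell embryo and no longer at 32 cells, so the stages ask which parts of each TGF-β branch are present around the time it acts.

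A BMP ligand brings type I and type II receptors together at the cell surface, and the activated type I receptor phosphorylates Smad1/5/8 in the cytoplasm. The phosphorylated Smad joins Smad4, enters the nucleus and regulates target genes. Smad2/3 carries Activin and Nodal signals in the same manner, and Smad6/7 is an inhibitory Smad that competes at the receptor. SMURF proteins are HECT-type E3 ubiquitin ligases. In *Drosophila* and vertebrates they mark BMP-specific Smads for degradation and, with inhibitory Smads, the receptors too. This route is the general one. The *C. teleta* Smad1/5/8 protein is described as having the MH2 domain, which binds receptors and other proteins, without the DNA-binding MH1 domain. Transcript levels say nothing of Smad protein or its phosphorylation.

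Totals per embryo ranged from 236321 to 491733 counts (median 320464). Levels are given as CPM, the gene's count relative to a fixed library total, after TMM scaling, which adjusts that total for differences in library composition. A CPM value cannot tell more molecules of a gene in the embryo from fewer molecules of the others, nor a higher level in a few cells from a lower one in many. In all, 11854 genes with at least 10 counts over the 12 embryos were tested together with edgeR's quasi-likelihood F test. A change was called at a Benjamini-Hochberg adjusted p under 0.05. The pair was put together with its patterns in these embryos known, so the tests below describe those patterns and are no independent evidence for them.

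*Smad1/5/8* was close to the detection limit in 8-cell embryos and was found in every later embryo, with the most in 32-cell embryos. Its 8-cell counts were 0, 1, 3 and 3 in replicates 1 to 4. In the 16-cell embryos it had 3, 9 and 5 counts, and in the 32-cell embryos 18, 22, 6, 14 and 6. In CPM, the 8-cell embryos held 0, 3.12, 6.24 and 9.79, the 16-cell embryos 9.14, 20.8 and 9.95, and the 32-cell embryos 59.9, 52.5, 19.0, 49.3 and 26.9. The 32-cell embryos all lay above the 8-cell embryos, the lowest of them at 19.0 CPM and the highest 8-cell embryo at 9.79 CPM. Here and for the separations of stages given below, the share of all genes tested that did the same was not counted. The 16-cell embryos overlapped both neighbouring stages, since 2 of 3 lay near the highest 8-cell embryo and the other one was above the lowest 32-cell embryo. The 0 counts of 8-cell replicate 1 still allow up to 10.7 CPM, the level of 3 counts in that embryo.

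*SMURF* was found in 12 of 12 embryos, at 30 to 59 counts each. The 8-cell embryos held 107, 162, 123 and 97.9 CPM, the 16-cell embryos 104, 87.8 and 117 CPM, and the 32-cell embryos 99.8, 88.3, 126, 148 and 148 CPM. The 3 stages overlapped fully, the highest embryo being an 8-cell one and the lowest a 16-cell one. The mean was 122 ± 28.4 CPM in 8-cell embryos (SD, n = 4) and 103 ± 14.8 CPM in 16-cell embryos (SD, n = 3). In 32-cell embryos it was 122 ± 27.3 CPM (SD, n = 5).

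**Figure D1:**
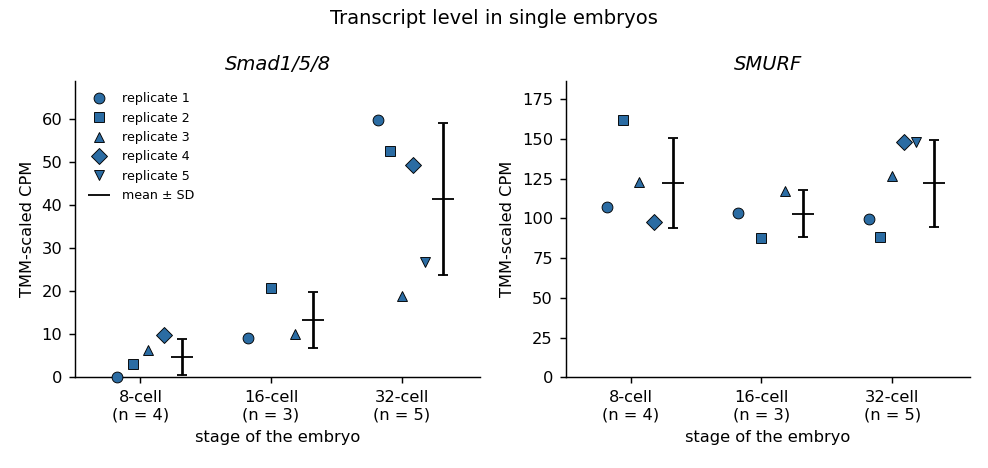
Level of *Smad1/5/8* (left) and *SMURF* (right) in TMM-scaled CPM for each of 12 single embryos by stage, with the mean and SD of each stage beside the points. All 5 embryos of the 32-cell stage lie above all 4 of the 8-cell stage for *Smad1/5/8*, whereas for *SMURF* the stages overlap between 87.8 and 162 CPM.

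The rise of *Smad1/5/8* held over the 2 divisions together, and neither division alone reached the threshold. Across the 3 stages it was called (adjusted p = 0.000545, edgeR), as were 17.2% of all genes tested. In 32-cell embryos it averaged 41.5 ± 17.6 CPM (SD, n = 5), against 4.78 ± 4.20 CPM (SD, n = 4) in 8-cell embryos. The fitted level was 7.92-fold higher (95% interval 3.67 to 17.1), a log2 fold change of 2.99 with a standard error of 0.54 (adjusted p = 0.000270, edgeR). In this comparison 20.0% of all genes were called, 11.0% higher and 8.98% lower in 32-cell embryos. In 16-cell embryos the gene averaged 13.3 ± 6.51 CPM (SD, n = 3), and its fitted level was 2.57-fold the 8-cell level (1.00 to 6.62), with an adjusted p of 0.219 in edgeR. Here 9.43% of all genes were called, 5.52% higher and 3.91% lower in 16-cell embryos. The 32-cell level was 3.08-fold the 16-cell level (1.54 to 6.16), with an adjusted p of 0.0966 in edgeR. That step had the fewest calls over all genes, at 2.21%, with 1.74% higher and 0.472% lower in 32-cell embryos. Dropping 1 embryo at a time left this step uncalled for *Smad1/5/8* in 11 of 12 fits, with adjusted p up to 0.393 (edgeR). Of these fits, only the one without 32-cell replicate 3 called it (log2 fold change 1.81, adjusted p = 0.0405, edgeR). That embryo had the lowest *Smad1/5/8* level of its stage, so dropping it raises the 32-cell mean.

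*SMURF* was not called in any comparison, and its intervals kept any change within 2-fold either way. The 32-cell level was 0.981-fold the 8-cell level (95% interval 0.738 to 1.30). The 16-cell level was 0.842-fold the 8-cell level (0.612 to 1.16), and the 32-cell level was 1.17-fold the 16-cell level (0.856 to 1.59). The adjusted p over the 3 stages was 0.688 in edgeR. Changes smaller than these bounds could not be told from none. The fitted 32-cell over 8-cell log2 value, -0.03, turned positive with DESeq2 size factors (0.0091) and without 8-cell replicate 2 (0.11), so it has no settled sign.

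**Figure D2:**
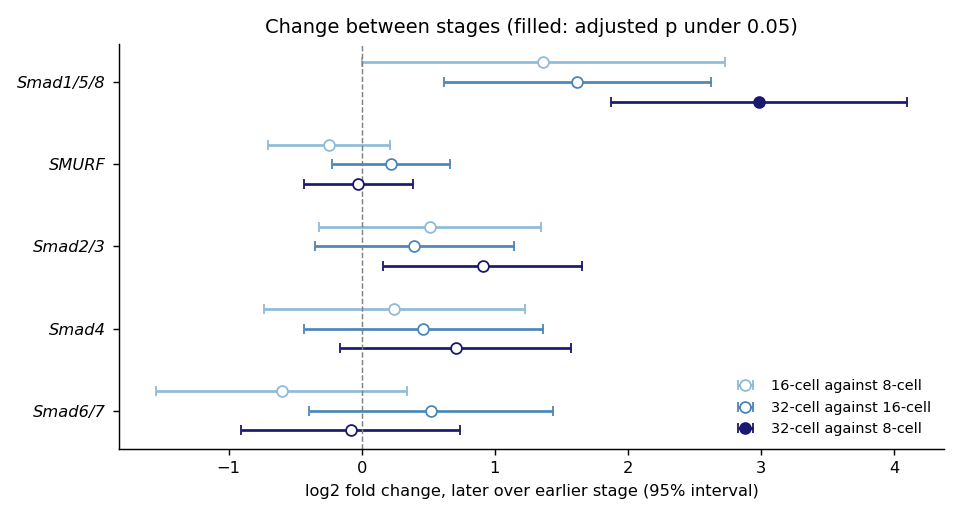
Log2 fold change of *Smad1/5/8*, *SMURF* and the other Smads between pairs of stages (x axis, later over earlier stage), with 95% intervals from the edgeR fit and filled points for an adjusted p under 0.05. The 32-cell over 8-cell change of *Smad1/5/8*, at 2.99, is the filled point, and the 3 intervals of *SMURF* all include 0.

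The pair differed in rank as well as in change. Among the 20716 gene models with a count in any embryo, *Smad1/5/8* stood at percentile 56.8 of mean level in 8-cell embryos, 67.6 in 16-cell embryos and 80.3 in 32-cell embryos. *SMURF* stood at percentiles 90.6, 89.3 and 90.7 in the same order. A 32-cell over 8-cell log2 fold change larger than that of *Smad1/5/8* was found for 561 of the 11854 genes tested (4.73%), and 470 of these were called. Among the 3356 tested genes with a mean level within 2-fold of its own, 3.67% had a larger log2 fold change and 399 (11.9%) were called higher. For *SMURF*, the ratio of the highest to the lowest stage mean was 1.19, against a median of 1.38 over the 2386 tested genes within 2-fold of its level. Of these genes, 20.5% had a smaller ratio, and 663 (27.8%) were called across the stages. *SMURF* was thus more even than the median gene of its level, but many genes were more even still.

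**Figure D3:**
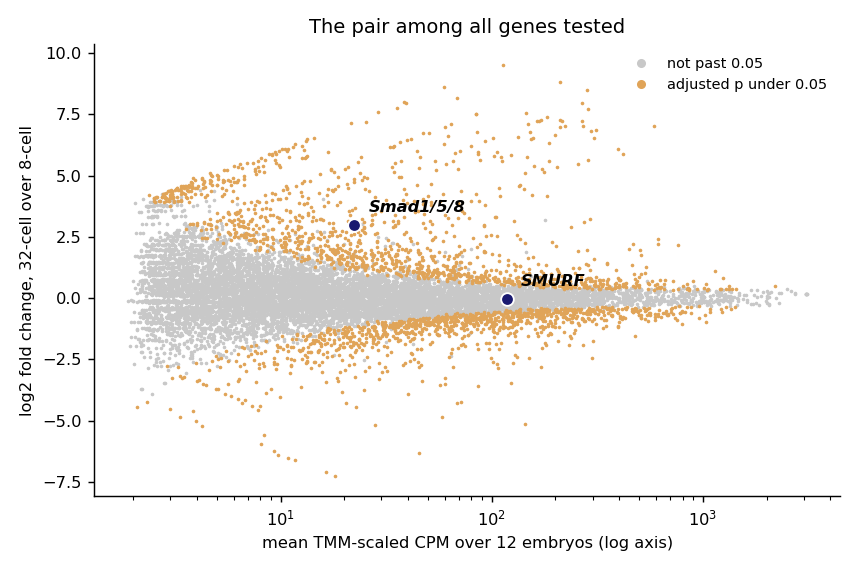
Each of the 11854 genes tested by its mean TMM-scaled CPM over 12 embryos (x axis, log scale) and its 32-cell over 8-cell log2 fold change (y axis), in orange where the adjusted p was under 0.05. *Smad1/5/8* lies at 22.2 CPM and 2.99, and *SMURF* at 117 CPM and -0.03.

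The scatter among embryos of a stage was near the size that counting alone gives at some stages and larger at others. The SD of *Smad1/5/8* was 1.07 times the SD that counting error gives among 8-cell embryos, 1.14 times among 16-cell embryos and 1.46 times among 32-cell embryos. For *SMURF* these ratios were 1.47, 0.932 and 1.36. The coefficient of variation of *Smad1/5/8* was 87.7% among 8-cell embryos, where the stage holds 7 counts, 48.9% on 17 counts among 16-cell embryos and 42.4% on 66 counts among 32-cell embryos. *SMURF*, on 171, 131 and 182 counts per stage, varied by 23.2%, 14.4% and 22.4%. Relative to its size, the earliest level of *Smad1/5/8* is therefore known far less precisely than any level of *SMURF*. From counts pooled over unscaled totals, the 95% counting interval of *Smad1/5/8* ran from 2.05 to 10.5 CPM in 8-cell embryos and from 32.5 to 53.5 CPM in 32-cell embryos, and these did not overlap. Such intervals leave out the spread between embryos, which at 32 cells was 1.46 times that of counting.

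The balance of the pair was then compared inside each embryo, where scaling between embryos cancels. CEL-Seq gives each transcript at most 1 tag, so counts were not divided by gene length. It was not tested whether each model reaches the true end of its transcript, so changes of the ratio are compared and not its absolute size. The log2 ratio of *Smad1/5/8* to *SMURF* counts, with 0.5 added to each, was -5.93, -5.13, -4.09 and -3.12 in the 8-cell embryos. It was -3.30, -2.02 and -3.44 in the 16-cell embryos and -0.72, -0.74, -2.64, -1.55 and -2.37 in the 32-cell embryos. All 32-cell embryos lay above all 8-cell embryos. The mean was -1.60 ± 0.89 (SD, n = 5) in 32-cell embryos, against -4.57 ± 1.22 (SD, n = 4) in 8-cell embryos, a difference of 2.96 with a standard error of 0.73. Over the 3 stages the ratio differed in an exact permutation test over all assignments of embryos to stages (p = 0.00372, and 0.00495 adjusted over the 4 ratios tested). Between 32-cell and 8-cell embryos the two-sided exact permutation p was 0.0159, the smallest that 126 splits allow, and 0.0476 adjusted over 3 pairs of stages. The exact permutation test of 16-cell against 8-cell embryos gave p = 0.171, where 35 splits cannot go below 0.0571, and that of 32-cell against 16-cell embryos gave p = 0.107. In counts pooled by stage, *Smad1/5/8* made up 3.93% of the pair's counts in 8-cell embryos (exact Clopper-Pearson 95% interval 1.60% to 7.93%), 11.5% in 16-cell embryos (6.84% to 17.8%) and 26.6% in 32-cell embryos (21.2% to 32.6%). These intervals cover counting error only.

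The other Smads showed how far the rise was shared within the family. *Smad2/3*, the transducer of the Activin/Nodal branch, was at 17.8, 9.35, 16.6 and 22.8 CPM in the 8-cell embryos. It was at 24.4, 25.4 and 21.9 CPM in the 16-cell embryos and at 26.6, 33.4, 44.2, 24.6 and 26.9 CPM in the 32-cell embryos. All 32-cell embryos lay above all 8-cell embryos here too, but by a narrow margin. The fitted 32-cell level was 1.88-fold the 8-cell level (95% interval 1.12 to 3.15), which was not called (adjusted p = 0.0790, edgeR). *Smad4*, the partner shared by both branches, averaged 32.8 ± 15.3 CPM (SD, n = 5) in 32-cell embryos, against 19.7 ± 7.86 CPM (SD, n = 4) in 8-cell embryos. Its fitted level was 1.63-fold the 8-cell level (0.893 to 2.98, adjusted p = 0.259 in edgeR), with overlapping embryos. *Smad6/7*, the inhibitory Smad, averaged 19.2 ± 6.27 CPM (SD, n = 5) in 32-cell embryos, against 20.9 ± 8.00 CPM (SD, n = 4) in 8-cell embryos. Its 32-cell level was 0.945-fold the 8-cell level (0.534 to 1.67, adjusted p = 0.941 in edgeR). *Smad1/5/8* was the 1 Smad of 4 that was called between 32-cell and 8-cell embryos, where 20.0% of all genes tested were called. A count of 1 in 4 is near that share and does not by itself set the gene apart. The difference of *Smad1/5/8* from the other Smads was tested in the ratios.

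**Figure D4:**
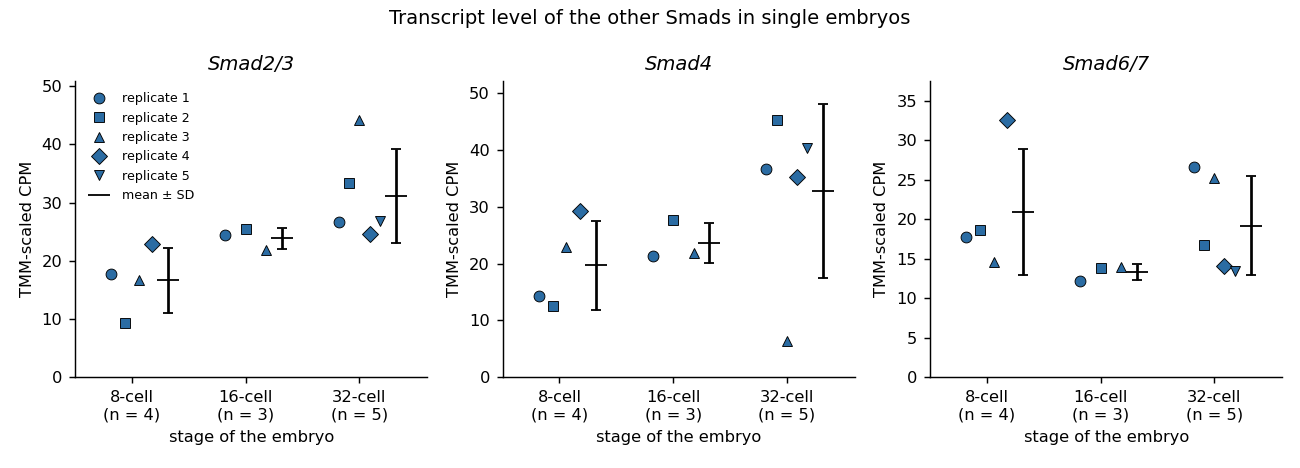
Level of *Smad2/3*, *Smad4* and *Smad6/7* in TMM-scaled CPM for each of 12 single embryos by stage, with the mean and SD of each stage. The 32-cell and 8-cell embryos overlap for *Smad4* and *Smad6/7* but not for *Smad2/3*, and 32-cell replicate 3 (triangle) is the highest for *Smad2/3*, at 44.2 CPM, and the lowest for *Smad4*, at 6.32 CPM.

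*Smad1/5/8* gained on *Smad4* and *Smad6/7* between 8-cell and 32-cell embryos, and less surely on *Smad2/3*. Its mean log2 ratio to *Smad6/7* was 0.98 ± 0.83 (SD, n = 5) in 32-cell embryos, against -2.06 ± 1.02 (SD, n = 4) in 8-cell embryos. The mean log2 ratio to *Smad4* was 0.44 ± 0.70 (SD, n = 5) in 32-cell embryos, against -1.98 ± 0.80 (SD, n = 4) in 8-cell embryos. The 32-cell and 8-cell embryos did not overlap in either ratio. Over the 3 stages, the exact permutation p adjusted over the 4 ratios was 0.00159 for each. The mean log2 ratio to *Smad2/3* was 0.31 ± 0.93 (SD, n = 5) in 32-cell embryos, against -1.77 ± 1.13 (SD, n = 4) in 8-cell embryos, and here the groups overlapped through 32-cell replicate 3. Between these groups alone the exact permutation p adjusted over 3 pairs of stages was 0.0952. Over the 3 stages the ratio had an adjusted exact permutation p of 0.0156, which was 0.265 when every embryo was thinned to the smallest total.

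Of the counts of both receptor-regulated Smads, *Smad1/5/8* made up 23.3% in 8-cell embryos (exact 95% interval 9.93% to 42.3%), 36.2% in 16-cell embryos (22.7% to 51.5%) and 57.4% in 32-cell embryos (47.8% to 66.6%). The 32-cell interval lay above the 8-cell interval, and the 16-cell interval overlapped both. These intervals too cover counting error only and leave out the spread between embryos. Inside single embryos the ratio overlapped between the 32-cell and 8-cell stages (adjusted exact permutation p = 0.0952). As above, only the change of this share is compared, not which gene had more transcripts.

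**Figure D5:**
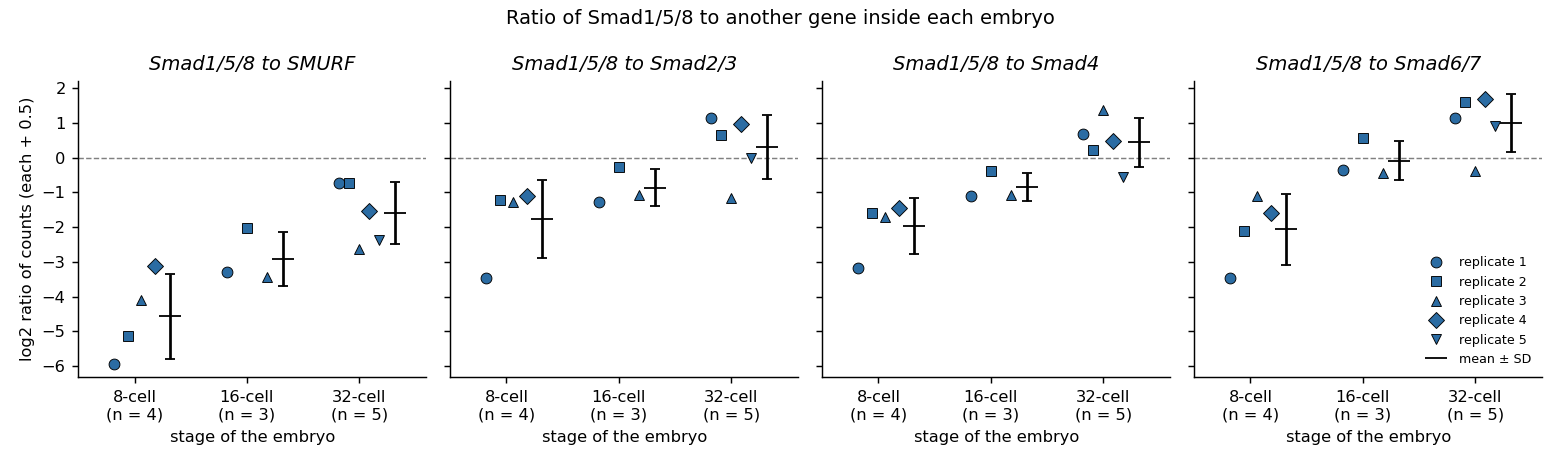
Log2 ratio of *Smad1/5/8* counts to those of *SMURF*, *Smad2/3*, *Smad4* and *Smad6/7* inside each of 12 embryos by stage (0.5 added to each count), with the mean and SD of each stage and a dashed line at equal counts. The ratios to *SMURF*, *Smad4* and *Smad6/7* have no overlap between the 32-cell and 8-cell embryos, and the ratio to *Smad2/3* overlaps through 32-cell replicate 3 (triangle), at -1.16.

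Among the 32-cell embryos, replicate 3 was at an end of the range for 3 of the 4 Smads, on few counts and with no test. It had 6 counts of *Smad1/5/8* (19.0 CPM) and 2 of *Smad4* (6.32 CPM), the lowest level of each among 32-cell embryos, and 14 counts of *Smad2/3* (44.2 CPM), the highest level. Replicate 5 also had 6 counts of *Smad1/5/8*, replicate 2 also had 14 of *Smad2/3*, and *Smad6/7* in replicate 3 was second highest (8 counts, 25.3 CPM). The spread of *Smad2/3* among these embryos was 0.771 times the SD of counting error. The *SMURF* level of replicate 3, 126 CPM, was the median of the stage. Its total of 327571 counts was the second highest of the 32-cell embryos.

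Of the 33 TGF-β components in the list the study compiled, 32 were in the count table and 19 had enough counts to be tested. In this list, which holds the pair and was read by the study on these same embryos, 5 of 19 (26.3%) were called across the 3 stages, against 17.2% of all genes tested. Without 8-cell replicate 3 the count was 3, and 1520 of all genes were called, against 2044 with every embryo. The median 32-cell over 8-cell log2 fold change was 0.51 over these components and 0.09 over all genes tested. Between 32-cell and 8-cell embryos 3 of the 19 (15.8%) rose, against 11.0% of all genes tested. These were *Smad1/5/8*, *Noggin A* and *activin/inhibin/myostatin-like 4*. In the same comparison 1 component, *TSG*, fell, and 8.98% of all genes did. *Noggin A*, a secreted antagonist of BMP ligands, averaged 49.5 CPM in 32-cell embryos and had 0 counts in all 8-cell embryos (adjusted p = 3.60e-06, edgeR). *TSG*, an extracellular modulator of BMP ligands, averaged 133 CPM in 32-cell embryos, against 254 CPM in 8-cell embryos (adjusted p = 0.000150, edgeR). The ligand gene *activin/inhibin/myostatin-like 4* averaged 147 CPM in 32-cell embryos, against 95.8 CPM in 8-cell embryos (adjusted p = 0.0259, edgeR). *Activin Receptor 2*, the type II receptor of the Activin/Nodal branch, was called across the stages (adjusted p = 0.0189, edgeR) with its highest mean, 252 CPM, in 16-cell embryos. Fitted log2 fold changes larger than that of *Smad1/5/8* were found for *Noggin A* and for the ligand gene *Maverick*, both with 0 counts in 8-cell embryos, where the fit sets no firm value.

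Genes with profiles like those of the pair were sought among the 7651 genes with a mean of at least 10 CPM, by Pearson's r of log2(CPM + 1) over the 12 embryos, as a description without a test. The files pair no gene names with these models, apart from the listed components. For *Smad1/5/8* the closest were gene models 95567 (r = 0.95) and 195718 (r = 0.94), and 23 genes exceeded an r of 0.9. Gene model 95567 averaged 6.94 CPM in 8-cell embryos, 18.9 CPM in 16-cell embryos and 34.3 CPM in 32-cell embryos. Gene model 195718 was more abundant, with 240 CPM in 32-cell embryos, against 110 CPM in 8-cell embryos. The fifth closest gene still had an r of 0.93, so no single gene stood out. Of the listed components, *Noggin A* was the most like it (r = 0.82), followed by *BMP2/4* (0.64) and *Smad2/3* (0.63). Of the genes compared, 2.30% had a higher r than *Noggin A*, 12.2% a higher r than *BMP2/4* and 12.9% a higher r than *Smad2/3*. *TSG* ran the other way (-0.60). For *SMURF* the closest gene models were 227550 (r = 0.85) and 197933 (0.84), and 0 genes exceeded 0.9. The highest r of a listed component with *SMURF* was 0.36, for *Activin Receptor 1*, and 9.91% of the genes compared had a higher one. The r between *SMURF* and *Smad1/5/8* was -0.13. All these values share the same 12 libraries, and stage differences enter each of them.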

How the data were processed

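*Smad1/5/8* is gene model 173019 and *SMURF* gene model 153266. Per the study's methods, the authors split CEL-Seq reads by embryo barcode, aligned them with Bowtie2, for which the sources name no version, and tallied UMIs with an htseq-count script. Binomial statistics then turned UMI numbers into transcript counts. The counts deposited are whole numbers without normalization, and the largest is 1024. That equals the number of possible UMIs used in the alternative with conversion below. It was not established whether the deposited counts had been converted. The deposited CPM values are counts over each embryo's total. The authors' table of DESeq2 likelihood ratio results (mean, fold change, statistic and p-values) was not used. Names came from the study's list of components.

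Counts were fitted in R 4.3.3 with edgeR 4.0.16, with all embryos in the same fit, TMM scaling, no covariate and a minimum of 10 counts summed over embryos. Standard errors are the size of the log2 fold change over the square root of F. Ratios were tested in Python 3.11.15 with scipy 1.17.1 by two-sided exact permutation, 0.5 being added to each count. Scripts were tested on simulated data. Replicates of a stage differed beyond sampling noise in every pair (chi-square per degree of freedom 1.40 to 1.98). Named genes were the pair, the other Smads, the components called across stages, the gene models closest in profile and the genes next to the pair. The pair, the lists and the tests were chosen with earlier results of these data known. Alternatives were DESeq2 1.42.0 size factors and tests, other filters, a replicate block, each embryo left out, thinning, conversion of UMI numbers (1024 possible), other pseudocounts and, added after seeing the data, embryo totals without TMM. Spike-in scaling was not used here.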

Additional observations from a re-analysis of the deposited data

Results flagged for a closer look

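In 18 groups of 4 or 5 embryos examined (levels of the 5 genes and the 4 ratios), 3 had a single embryo far from the rest, where chance gives about 1 in 20 groups. At the 8-cell stage, replicate 1 stood apart with a log2 ratio of *Smad1/5/8* to *Smad2/3* of -3.46, against -1.28 to -1.10 in the other embryos, and of *Smad1/5/8* to *Smad4* of -3.17. Both values come from 0 counts of *Smad1/5/8* and depend on the 0.5 added. At the 32-cell stage, *Smad4* stood at 6.32 CPM in replicate 3, on 2 counts, with the other embryos between 35.2 and 45.4 CPM.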

How the results depend on the processing

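Of 264 values recomputed under an alternative, 254 kept their direction and side of the threshold (for counts of genes, within 1.5 times). *Smad1/5/8* stayed called across the stages and between 32-cell and 8-cell embryos in all alternatives, with 32-cell over 8-cell log2 fold changes of 2.66 to 3.43. The 32-cell over 16-cell change was called with no minimum beyond 1 count (1.60, adjusted p = 0.0358 in edgeR) and, among single embryos left out (1.42 to 2.09), without 32-cell replicate 3. *SMURF* at the 32-cell against the 8-cell stage was -0.03 and turned positive with DESeq2 size factors (0.0091), with DESeq2 (0.0087), when thinned (0.091) and in some cases with an embryo left out (-0.12 to 0.11), and was never called. The ratio of *Smad1/5/8* to *Smad2/3* was not past the threshold after thinning (adjusted exact permutation p = 0.265), where counts are fewer. The number of components called was 3 to 5 with an embryo left out, lowest without 8-cell replicate 3. With the replicate block, 1847 genes were called across the stages, against 2044 without it, and no call for the pair changed. Same-numbered embryos did not deviate together (r between -0.06 and 0.04 over 10 pairs, against -0.10 to 0.10 for differently numbered embryos). The labels do not say what the numbers stand for. With the counting noise at these totals, a weak effect of a shared brood or batch could go unseen, so pairing is unknown. With DESeq2 size factors the median log2 fold change of all genes, 32-cell over 8-cell, was 0.13, against 0.09 with TMM. Depth limits the 8-cell level of *Smad1/5/8*, which rests on 7 counts.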

Other observations

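The gene models next to the pair were read in the same embryos. The annotation of the Capca1 assembly places *Smad1/5/8* at positions 302276 to 307435 and *SMURF* at 34883 to 44651 of scaffolds that it does not name, without strand in the table used. By these positions, none of the neighbouring models given here overlaps either gene. The model before *Smad1/5/8*, at 2411 bases, had 4, 2 and 3 counts in 8-, 16- and 32-cell embryos, and the one after it, at 4437 bases, had 0 counts in all embryos. The model before *SMURF*, at 421 bases, had 1 count at each stage, and the one after it, at 2163 bases, had 2 counts in 16-cell embryos and 0 in the others. Of the second models out, the one before *Smad1/5/8*, at 4335 bases, had a 32-cell over 8-cell log2 value of 0.09 (adjusted p = 0.716, edgeR). The one after it, at 9233 bases, had -0.41 (adjusted p = 0.198, edgeR), and the one before *SMURF* had 0 counts. The second model after *SMURF*, at 5582 bases, had 29 counts in 32-cell embryos, against 7 in 8-cell embryos, with a fitted log2 value of 1.88 (adjusted p = 0.0265, edgeR). It was the 1 called of 3 neighbours tested, and 11.0% of all genes were called higher in this comparison.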
